A study of Mus musculus with 9 samples.

Results

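RNA from mouse stem cells grown in Activin A and BMP4 was compared with RNA from the cells they were made from, which grew in Activin A and bFGF. The comparison takes 6 of the 9 libraries of the series, namely every library of the groups called ABSC (3) and AFSC (3); the 3 libraries of the third group, ALSC, entered the fit only to help estimate the spread. AFSC came from blastocysts of Sv129 x GOF/GFP F1 embryos, were labelled as resembling epiblast stem cells (EpiSC) and were sampled at passage 15 to 20. ABSC were AFSC carried for more than 5 passages in Activin A and BMP4, were labelled as resembling trophoblast stem cells (TSC), and were sampled at passage 25 to 30. All cells were of the same strain, all were kept in a serum-free base with N2 and B27, and both media held Activin A. The media differed in bFGF and BMP4 at once and the passage ranges do not overlap, so BMP4, loss of bFGF and passage cannot be told apart. The labels do not say whether the libraries of a group are separate cultures, so the p-values measure the spread between these libraries, which may be technical.

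BMP4 is a secreted signal of the TGF-beta family that acts through SMAD1, SMAD5 and SMAD9, whereas Activin A and its relative Nodal act through SMAD2 and SMAD3. All of these share SMAD4, and each branch switches on its own inhibitors as feedback. In the mouse embryo around gastrulation, BMP4 from the extraembryonic ectoderm acts on the epiblast next to it, where it is needed for extraembryonic mesoderm and for germ cell precursors. FGF acts through the ERK kinase cascade, and together with Activin A it keeps cells of the epiblast type growing in culture.

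Levels are CPM, counts scaled by TMM library size, and each set of 3 values is in the order of libraries 1, 2 and 3. Changes are log2 ratios of ABSC over AFSC with their standard error (SE), and an adjusted p is that of edgeR's quasi-likelihood test with Benjamini-Hochberg adjustment over all 16178 genes tested. Rose, fell and called are used of genes with an adjusted p under 0.05. The 6 libraries held 19414685 to 21627656 counts. In each group the library numbered 1 stood apart: over genes with at least 50 counts in a pair, library 1 differed from its partners by 14.7 times the sampling variance in AFSC and by 26.6 and 29.6 times in ABSC, while libraries 2 and 3 differed by 2.27 and 3.21 times. Group lay along the first principal component of the 6 libraries (48.6% of the variance) and the libraries numbered 1 lay at 1 end of the second (29.2%). Mitochondrial genes took 0.794% of the counts in ABSC 1 and 1.36% to 1.57% in the other 5. Vegfa, a growth factor for blood vessels that is induced by low oxygen, showed the same split at 65.0, 26.6 and 23.2 CPM in AFSC and 78.7, 23.9 and 24.1 CPM in ABSC, with overlapping groups. Counts are therefore given also with the library number as a block and, where it matters, without the libraries numbered 1.

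Trophoblast markers of the ABSC label were mixed. Of 12 trophoblast stem cell markers, 10 were tested and 4 rose (background 7.98% called in either direction), with a summed level of 362 to 439 CPM in AFSC and 615 to 749 CPM in ABSC. Hand1, a factor of trophoblast and of mesoderm, supplied most of that difference, at 0.155, 0.189 and 0.376 CPM in AFSC and 244, 208 and 188 CPM in ABSC. Cdx2, which specifies trophectoderm and also marks the posterior embryo, rose from 0, 0.142 and 0.235 to 0.835, 6.43 and 6.07 CPM. Tead4 and Krt8 were the other 2 that rose. The call of Tead4 (adjusted p = 0.0476) held in 0 of the 6 fits that left out a library, and that of Krt8 in 3. Elf5 and Gata3, which also help define trophoblast stem cells, averaged under 1 CPM in both groups. Elf5 averaged 0.224 CPM in AFSC and 0.033 CPM in ABSC, and Gata3 0.227 and 0.750 CPM. Without the libraries numbered 1, Gata3 (log2 change 2.10, adjusted p = 0.00484), Tfap2c (1.34, 9.26e-08) and Krt18 (0.31, 0.000361) were also called higher. Fgfr2 was called lower in that fit (-0.53, 0.000603), where 28.5% of all genes were called. Markers of differentiated trophoblast, a list that holds Hand1 as well, summed to 4.54 to 9.53 CPM in AFSC and 190 to 255 CPM in ABSC, with Hand1 the 1 gene called of 3 tested. Of its 11 members 9 averaged under 1 CPM in both groups. Tpbpa, Prl3d1, Prl3b1, Synb and Ctsq, which mark spongiotrophoblast, giant cells and syncytium, were at 0 in every AFSC and ABSC library. Of 7 tested pluripotency markers 3 rose and 1 fell. Sox2 was the marker that fell, from 26.95, 25.0 and 23.9 to 13.7, 16.6 and 18.0 CPM (log2 change -0.65, adjusted p = 0.0123). Its call held in 5 of the 6 fits that left out a library. The pluripotency factor Pou5f1 stood at 1122, 1060 and 1041 CPM in AFSC and 1239, 1261 and 1179 CPM in ABSC. The small rise of Pou5f1 (log2 change 0.19, adjusted p = 0.0466) was lost when any of the 6 libraries was left out, at adjusted p of 0.0514 to 0.193. The markers of the AFSC label were abundant. All 9 primed epiblast markers were tested, at a summed 3070 to 3130 CPM in AFSC and 2200 to 2520 CPM in ABSC, and 6 fell. Dnmt3b, at a mean of 2025 CPM in AFSC and 1612 CPM in ABSC, made up most of both sums. The calls of Fgf5, Pou3f1 and Sall2 held in all 6 fits that left out a library. Those of Otx2, Zic2 and Dnmt3b held in 3, 2 and 1 of them. Fibroblast markers summed to 17.5 to 18.9 CPM in AFSC and 10.1 to 18.1 CPM in ABSC, with 0 of 5 tested called, and blood and endothelial markers stayed under 5 CPM in every library. In bulk RNA, fewer cells of a type and less RNA per cell cannot be told apart.

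Of the 16178 genes tested, 1291 (7.98%) were called, 644 higher in ABSC (3.98%) and 647 lower (4%). Most changes were moderate: the median absolute log2 change of the called genes was 0.818, 446 of them changed by less than 1.5-fold, and 536 (3.31% of those tested) by 2-fold or more, with 214 of those higher and 322 lower. At the far end, 30 genes rose and 34 fell by more than 8-fold. The genes that rose were the more abundant ones, at a median of 24.9 CPM in AFSC and 42.7 CPM in ABSC, and together went from 3.61% to 5.21% of the library. The genes that fell went from a median of 14.5 to 7.43 CPM and from 3.34% to 2.24% of the library. Among genes averaging 100 CPM or more 148 rose and 86 fell, while between 1 and 10 CPM 136 rose and 240 fell. The groups overlapped in only 1 of the called genes, against a share of 27.4% of all tested genes in which the groups did not overlap.

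**Figure D1:**
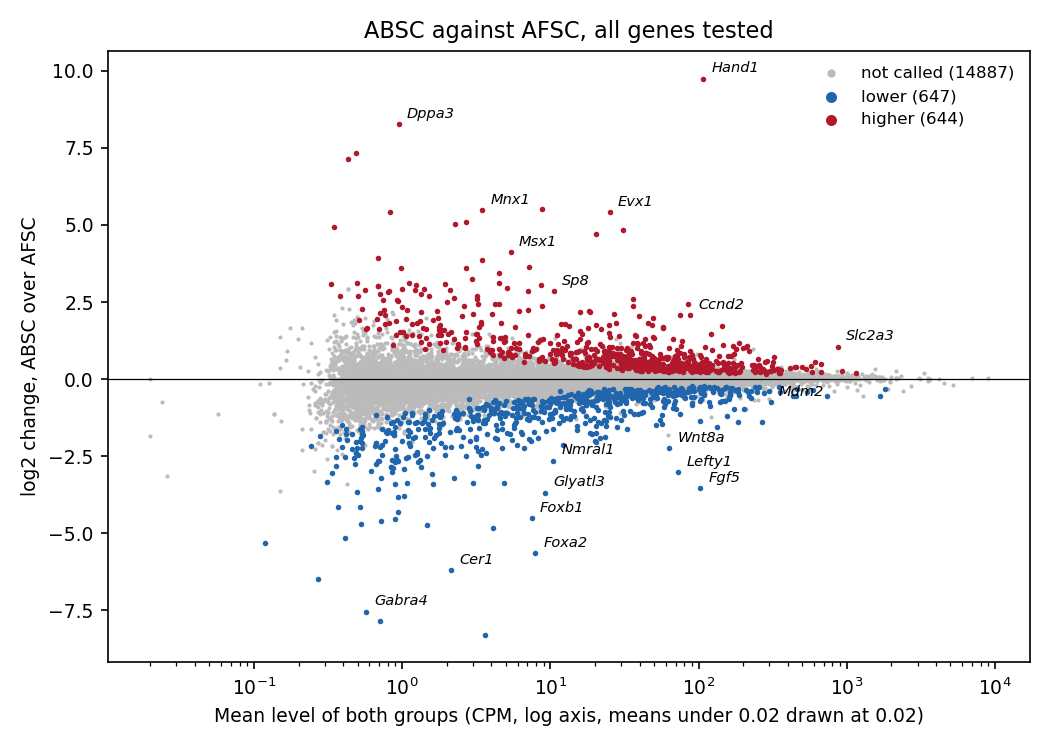
Log2 change of ABSC over AFSC (vertical) against the mean level of both groups in CPM (horizontal, log axis) for the 16178 genes tested. Red points are the 644 genes called higher and blue points the 647 called lower; Hand1 lies alone at the top, and between 1 and 10 CPM there are 240 falls and 136 rises.

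With the library number as a block, 3132 genes (19.4%) were called, 1550 higher (9.58%) and 1582 lower (9.78%), among them 1284 of the 1291 in the same direction. Without the 3 libraries numbered 1 the count was 4622 (28.5%), 2360 higher (14.5%) and 2262 lower (13.9%), with 1282 of the 1291 among them. When each of the 6 libraries was left out in turn, 580 of the calls (3.59% of the genes tested; 302 higher, 278 lower) held every time. The genes named below are mostly of that kind. ABSC 1 was the ABSC library closest to AFSC for 346 of the 644 genes that rose (53.7%) and 323 of the 647 that fell (49.9%). AFSC 1 was the AFSC library closest to ABSC for 247 of the 644 that rose (38.4%) and 337 of the 647 that fell (52.1%). For many genes of both directions the change was thus smallest in ABSC 1, and for many that fell also in AFSC 1.

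Genes that BMP signalling is known to switch on mostly rose. Of 15 such targets 10 were tested, 7 rose and 0 fell (median log2 change 1.70, against -0.0043 over all genes tested), and 9 rose with the block. Id1, an inhibitor of basic helix-loop-helix factors and the textbook BMP target, stood at 3.14, 1.37 and 1.74 CPM in AFSC and 68.4, 56.8 and 54.1 CPM in ABSC (log2 change 4.85, SE 0.42, adjusted p = 0.000121). Its relative Id2 was even across the ABSC libraries, at 5.72, 7.61 and 6.30 CPM in AFSC and 30.6, 30.0 and 30.0 CPM in ABSC (2.20, SE 0.15, adjusted p = 2.14e-05). Id4 rose from 0.670, 1.13 and 0.705 to 2.46, 3.19 and 2.48 CPM (1.68, SE 0.30, adjusted p = 0.00709). The homeobox repressor Msx1 rose from 0.412, 0.850 and 0.470 CPM to 3.00, 12.6 and 15.0 CPM (4.12, SE 0.59, adjusted p = 0.00229), with ABSC 1 far below its partners. Msx2 rose from 0.618, 0.331 and 0.282 to 2.95, 3.19 and 4.35 CPM (3.09, SE 0.40, adjusted p = 0.00124). In each of these 5 genes the groups were separate, as in all but 1 of the called genes and in 27.4% of all tested genes. Id3, the family member already present in AFSC, was at 23.2, 31.9 and 30.4 CPM there and at 35.5, 48.6 and 42.1 CPM in ABSC, also separate, and was not called (0.56, adjusted p = 0.133) except with the block (adjusted p = 0.000280).

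The promoters of the rising BMP genes that the RefSeq table holds are shown because SMAD proteins bind DNA directly. Each runs from 250 bases before to 50 bases after the RefSeq start (GRCm38.p6), 5′ to 3′ on the gene's strand. Capitals mark GGCGCC, a GC-rich element reported for BMP SMADs, and GTCTAGAC, the palindromic SMAD element; both read the same on either strand.
Id2, chr12:25096043-25096342, minus strand: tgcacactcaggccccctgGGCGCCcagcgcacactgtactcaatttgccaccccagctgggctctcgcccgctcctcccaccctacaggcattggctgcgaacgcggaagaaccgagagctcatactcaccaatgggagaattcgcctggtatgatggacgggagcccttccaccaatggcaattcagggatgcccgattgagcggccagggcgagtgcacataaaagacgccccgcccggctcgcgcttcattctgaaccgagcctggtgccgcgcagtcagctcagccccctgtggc
Id4, chr13:48260866-48261165, plus strand: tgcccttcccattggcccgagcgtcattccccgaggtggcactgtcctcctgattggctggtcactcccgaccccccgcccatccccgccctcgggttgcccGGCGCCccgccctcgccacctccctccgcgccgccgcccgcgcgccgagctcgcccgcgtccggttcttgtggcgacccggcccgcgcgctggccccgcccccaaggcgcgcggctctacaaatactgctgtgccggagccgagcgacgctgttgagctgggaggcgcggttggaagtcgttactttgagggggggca
Msx1, chr5:37824536-37824835, minus strand: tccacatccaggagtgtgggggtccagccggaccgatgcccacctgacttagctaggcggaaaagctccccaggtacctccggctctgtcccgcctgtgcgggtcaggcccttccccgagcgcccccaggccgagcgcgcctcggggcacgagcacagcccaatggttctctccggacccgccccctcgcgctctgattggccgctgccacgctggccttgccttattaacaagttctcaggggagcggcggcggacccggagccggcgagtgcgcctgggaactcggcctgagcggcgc
Msx2, chr13:53472731-53473030, minus strand: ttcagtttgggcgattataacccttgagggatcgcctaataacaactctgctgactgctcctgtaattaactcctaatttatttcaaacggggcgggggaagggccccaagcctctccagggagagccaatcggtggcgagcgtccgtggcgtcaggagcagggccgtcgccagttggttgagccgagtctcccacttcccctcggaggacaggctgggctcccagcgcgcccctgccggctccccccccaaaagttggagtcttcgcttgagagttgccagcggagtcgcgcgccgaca
Smad6, chr9:64022010-64022309, minus strand: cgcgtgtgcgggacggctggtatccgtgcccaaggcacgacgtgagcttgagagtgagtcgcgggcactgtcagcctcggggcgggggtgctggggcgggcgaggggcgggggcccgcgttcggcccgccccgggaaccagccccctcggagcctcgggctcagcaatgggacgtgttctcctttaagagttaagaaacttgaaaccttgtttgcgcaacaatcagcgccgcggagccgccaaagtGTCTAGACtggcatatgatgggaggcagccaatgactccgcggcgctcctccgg
GGCGCC occurred in the promoters of Id2, where it begins 231 bases before the start, and of Id4, 148 bases before it. That word is common, found in 21.7% of the 11122 promoters of tested genes that could be matched, in 23.4% of those of genes that rose and in 16.8% of those of genes that fell. GTCTAGAC occurred in Smad6, beginning 4 bases before the start, and is rare at 0.261% of the matched promoters. It was no more frequent among genes that rose (0.211%) or fell (0.21%). The windows of Msx1 and Msx2 held neither word. These matches describe the letters and were not tested for binding.

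Inhibitors of the BMP pathway moved both ways, 2 higher and 2 lower of 14 tested, while of 6 tested ligands 0 rose and 2 fell. Of the inhibitor calls, the 2 falls and 0 of the rises held in every fit that left out a library. Smad6, an intracellular inhibitor that BMP signalling induces, was at 3.56, 2.27 and 2.40 CPM in AFSC and 11.4, 9.10 and 6.17 CPM in ABSC (log2 change 1.70, SE 0.38, adjusted p = 0.0218), separate groups whose call was lost without ABSC 2 (adjusted p = 0.0699), AFSC 2 (0.101) or AFSC 3 (0.0989). The secreted BMP antagonist Chrd fell from 6.70, 4.63 and 4.89 to 1.42, 0.418 and 1.37 CPM (-2.32, SE 0.37, adjusted p = 0.00401). Cer1, an antagonist of BMP, Nodal and WNT ligands, had 255 counts in AFSC and 3 in ABSC, a ratio of 81.4 with a 95% counting interval of 27.6 to 398. Among the ligands, Bmp7 fell from 15.8, 18.99 and 19.3 to 11.2, 9.26 and 7.49 CPM (-0.95, SE 0.17, adjusted p = 0.00791) and Bmp2 from 1.44, 1.23 and 1.03 to 0.295, 0.366 and 0.253 CPM (-2.00, SE 0.33, adjusted p = 0.00517). The 5 tested receptors and the 3 tested SMAD transducers gave 0 calls, with medians of 0.15 and 0.026. Over the whole list of 38 tested BMP genes 9 rose and 4 fell, 34.2% against the 7.98% of all genes.

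**Figure D2:**
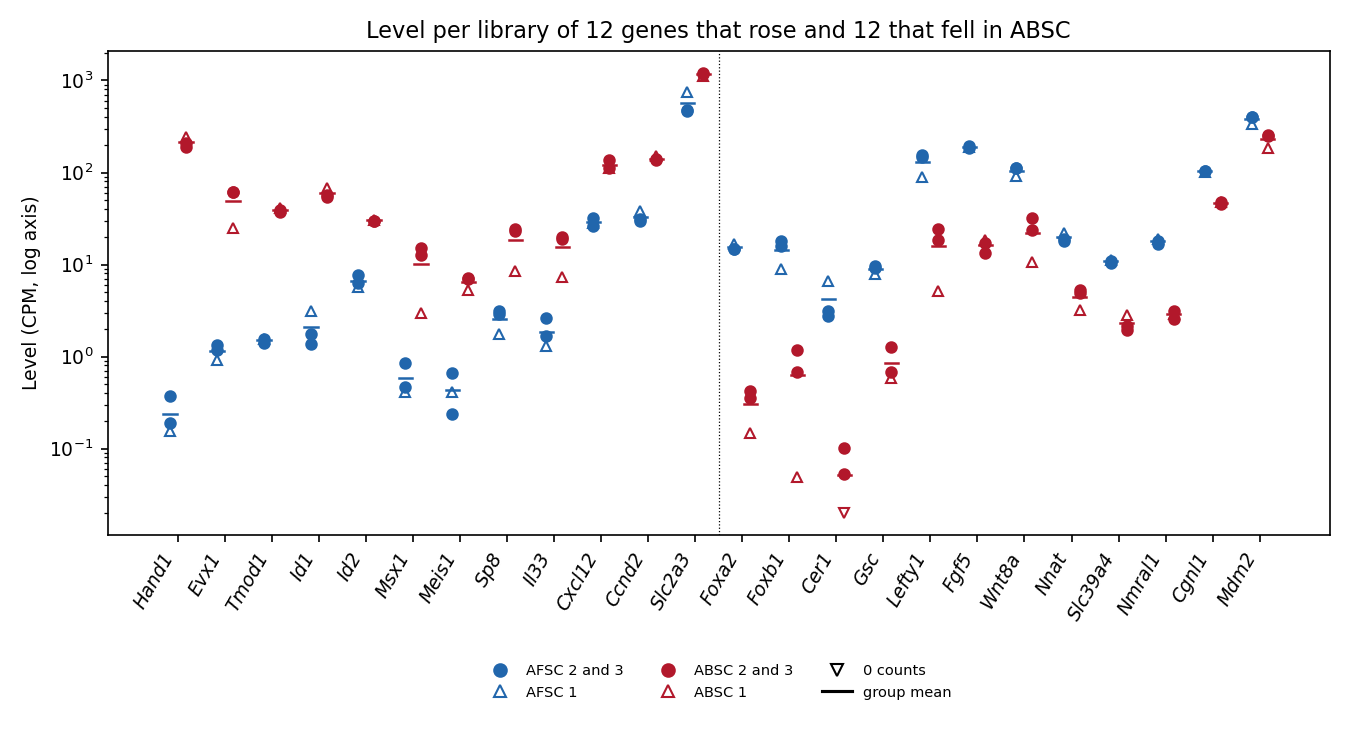
Level in CPM (log axis) of 24 named genes in each AFSC (blue) and ABSC (red) library, with the libraries numbered 1 as open triangles and short lines for the group means. The left 12 genes rose and the right 12 fell; ABSC 1 lies below ABSC 2 and 3 in Evx1, Msx1, Sp8, Il33, Lefty1 and Wnt8a.

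Activin and Nodal genes showed the opposite balance although Activin A was in both media. Of 25 tested 2 rose and 6 fell (32% called against 7.98% of all genes). Among the 10 tested inhibitors and targets 0 rose and 5 fell (median -1.20). Lefty2, a secreted Nodal inhibitor that Nodal itself induces, fell from 16.4, 19.5 and 21.4 to 7.17, 7.84 and 8.45 CPM (-1.29, SE 0.14, adjusted p = 0.000373). Gsc, a homeobox factor of the anterior primitive streak, fell from 7.83, 9.54 and 9.11 to 0.589, 0.680 and 1.26 CPM (-3.38, SE 0.26, adjusted p = 4.95e-05). Tgfbr3, a co-receptor that binds TGF-beta family ligands, fell from 36.5, 38.2 and 43.5 to 11.54, 18.4 and 19.18 CPM (-1.27, SE 0.24, adjusted p = 0.00909). The members that rose were Tdgf1, the Nodal co-receptor, from 571, 549 and 547 to 680, 821 and 837 CPM (0.49, SE 0.084, adjusted p = 0.00593), and the ligand Gdf3, from 0.567, 0.992 and 0.705 to 4.81, 9.47 and 10.5 CPM (3.43, SE 0.45, adjusted p = 0.00134). Nodal itself was not called, at 163, 255 and 271 CPM in AFSC and 91.6, 179 and 187 CPM in ABSC, where the groups overlapped (adjusted p = 0.240; with the block -0.62, adjusted p = 0.0372).

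The bFGF of the AFSC medium was absent from the ABSC medium, and calls among feedback genes of the FGF pathway depended on the fit. Of 40 tested FGF and ERK genes 3 rose and 3 fell (15% called against 7.98% of all genes). Of the 10 tested feedback inhibitors, which ERK activity induces, 0 were called (median 0.10), with 1 higher and 2 lower under the block. Without the libraries numbered 1, 4 of the 10 were higher and 3 lower, where 28.5% of all genes were called. Of 14 tested targets 1 rose and 1 fell, and 3 rose and 7 fell without those libraries. Dusp6, the phosphatase of ERK that is often read as its output, was at 361, 323 and 331 CPM in AFSC and 288, 328 and 291 CPM in ABSC, with overlapping groups. The ERK-induced factors Etv4 and Etv5 also overlapped, Etv4 at 140, 155 and 158 CPM in AFSC and 144, 122.95 and 126 CPM in ABSC. Without the libraries numbered 1, Etv4 was called lower (-0.33, adjusted p = 2.83e-05). The receptor Fgfr1 rose from 228, 213 and 206 to 310, 283 and 299 CPM (0.47, SE 0.061, adjusted p = 0.00133). The heparan sulfate core protein Gpc4 fell from 91.7, 92.0 and 88.9 to 61.9, 65.9 and 61.7 CPM (-0.52, SE 0.075, adjusted p = 0.00208). Of 9 tested ligands 1 rose and 1 fell. Fgf17, a ligand at low level, rose from 1.13, 0.898 and 0.846 to 2.26, 3.14 and 3.29 CPM (1.59, SE 0.24, adjusted p = 0.00268). The ligand Fgf5, also a primed epiblast marker, fell from 189, 184 and 193 to 18.3, 13.5 and 17.2 CPM (-3.53, SE 0.14, adjusted p = 1.25e-06).

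In the WNT pathway 1 of 58 tested genes rose and 7 fell (13.8% called against 7.98% of all genes). The ligand Wnt8a fell from 91.1, 111 and 111 to 10.6, 24.0 and 32.2 CPM (-2.23, SE 0.35, adjusted p = 0.00490). Over the alternatives its adjusted p ranged from 8.21e-08 to 0.0610, and the call was lost only with the block over the 6 libraries alone. Lef1, a nuclear effector of beta-catenin, fell from 12.7, 19.4 and 16.8 to 5.26, 8.79 and 7.44 CPM (-1.19, SE 0.21, adjusted p = 0.00650), and the receptor Fzd8 from 12.2, 12.99 and 12.6 to 6.63, 6.85 and 6.73 CPM (-0.90, SE 0.12, adjusted p = 0.00141). Lgr5, the R-spondin receptor, had 86 counts in AFSC and 3 in ABSC, a ratio of 27.5 (95% counting interval 9.09 to 136). Axin2, the usual readout of beta-catenin activity, was not called, at 29.3, 50.9 and 51.4 CPM in AFSC and 34.2, 81.7 and 92.3 CPM in ABSC, where the libraries numbered 1 were lowest in both groups (0.66, adjusted p = 0.393; with the block 0.00128). Of 21 tested Notch genes 0 rose and 3 fell (14.3% called against 7.98% of all genes). Of these 3 calls 0 held in every fit that left out a library. The ligand Jag2 was at 199, 181 and 179 CPM in AFSC and 135, 104 and 105 CPM in ABSC (-0.70, adjusted p = 0.0135), a call lost without ABSC 2 (0.0654) or ABSC 3 (0.0623). The Hedgehog effector Gli1 fell from 6.03, 6.61 and 8.03 to 1.57, 3.03 and 3.09 CPM (-1.43, SE 0.25, adjusted p = 0.00630), the only call among 11 tested genes of that pathway, and 0 of 16 genes of retinoid handling were called.

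Homeobox genes changed in both directions, 11 higher and 10 lower of 71 tested (29.6% called against 7.98% of all genes). Mnx1, a factor of motor neurons, pancreas and notochord, rose from 0.206, 0.189 and 0.0470 to 7.12, 6.38 and 6.78 CPM (5.48, SE 0.34, adjusted p = 1.47e-05). Meis1, a partner of Hox proteins, rose from 0.412, 0.236 and 0.658 to 5.30, 7.11 and 6.98 CPM (3.87, SE 0.32, adjusted p = 8.34e-05), and Hopx from 9.43, 11.8 and 10.1 to 17.04, 20.2 and 20.0 CPM (0.87, SE 0.14, adjusted p = 0.00449). Meis2 showed a like rise from 0.361, 0.803 and 0.517 to 1.57, 6.75 and 7.79 CPM (3.24, adjusted p = 0.0110), lost without AFSC 3 (0.0579). Lhx1, a factor of the anterior streak and its mesoderm, fell from 12.4, 5.15 and 6.15 to 0.295, 0.209 and 0.304 CPM (-4.84, SE 0.71, adjusted p = 0.00279). 

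Among 92 tested genes of other developmental factor families 9 rose and 11 fell (21.7% called against 7.98% of all genes). Of 27 forkhead genes 1 rose and 5 fell (22.2% called). Among those that fell were the endoderm factors Foxa2, which fell most, from 16.8, 14.7 and 14.8 to 0.147, 0.418 and 0.354 CPM (-5.64, SE 0.27, adjusted p = 4.19e-06), and Foxa1, from 4.38, 2.22 and 2.26 to 0.147, 0.418 and 0.253 CPM (-3.41, SE 0.52, adjusted p = 0.00288). Foxb1, another member, fell from 8.97, 15.8 and 18.1 to 0.0491, 0.680 and 1.16 CPM (-4.50, SE 0.56, adjusted p = 0.00109). Of 22 KLF and SP genes 4 rose and 2 fell (27.3% called). Sp8, a zinc-finger factor of limb and forebrain, rose from 1.75, 3.12 and 2.87 to 8.55, 24.1 and 23.1 CPM (2.84, SE 0.43, adjusted p = 0.00302), and Klf3 from 19.9, 21.7 and 21.0 to 47.1, 60.9 and 56.2 CPM (1.39, SE 0.13, adjusted p = 0.000155). Tbx20, a T-box factor of heart and extraembryonic mesoderm, rose from 1.39, 1.28 and 1.22 to 5.50, 8.05 and 7.79 CPM (2.45, SE 0.22, adjusted p = 0.000142). The epithelial factor Grhl2 rose from 52.5, 52.8 and 52.4 to 80.1, 92.0 and 91.6 CPM (0.74, SE 0.087, adjusted p = 0.000670). The orphan nuclear receptor Nr5a2 rose from 1.03, 0.803 and 0.940 to 9.43, 6.75 and 7.89 CPM (3.11, SE 0.27, adjusted p = 0.000117), the only rise among 26 nuclear receptors, of which 2 fell (11.5% called).

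**Figure D3:**
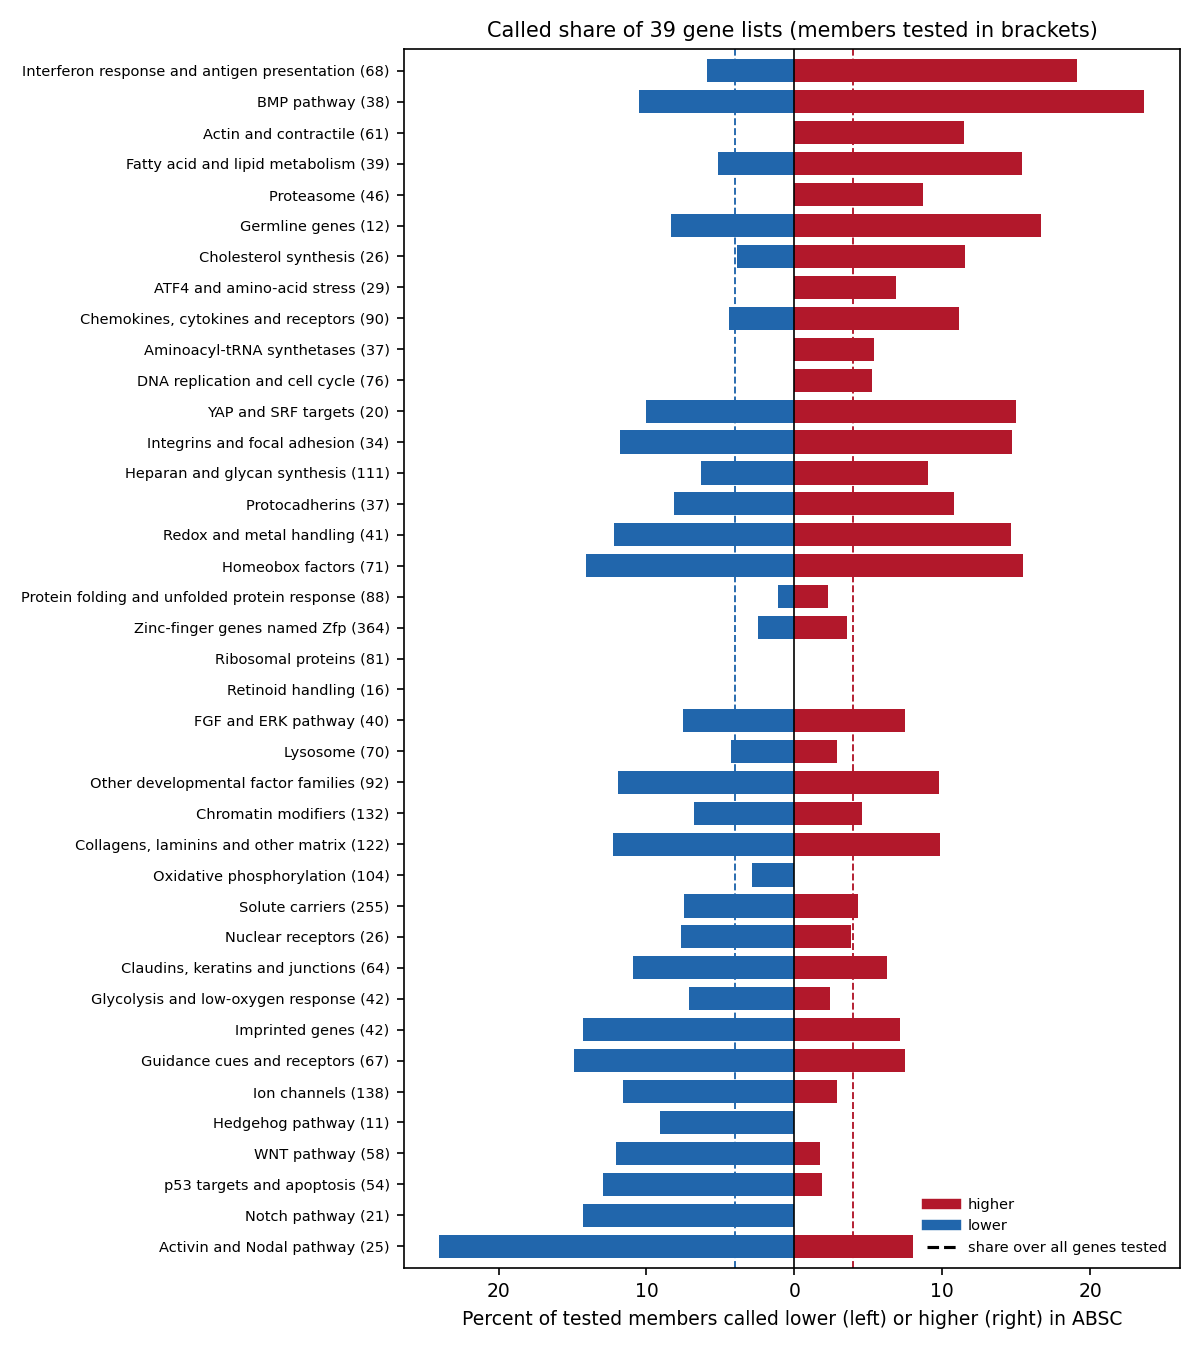
Share of tested members of each of 39 gene lists called higher (red, right) or lower (blue, left) in ABSC, in percent, with the number tested in brackets and dashed lines at the 3.98% and 4% of all genes. BMP and interferon lists extend furthest right, the Activin and Nodal list furthest left, and ribosomal proteins and retinoid handling have no bar.

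Of 61 tested actin and contractile genes 7 rose and 0 fell (11.5% called against 7.98% of all genes, median 0.17). With the block 22 rose and 3 fell, where 9.58% of all genes rose. Tmod1, which caps the slow-growing end of actin filaments, was steady within each group, at 1.55, 1.42 and 1.55 CPM in AFSC and 40.8, 39.4 and 37.3 CPM in ABSC (4.70, SE 0.18, adjusted p = 9.27e-07). It overlaps Tstd2, and the kit does not mark strand, so reads of the overlap cannot be told apart. Cald1, an actin and myosin binding protein, rose from 236, 248 and 238 to 361, 435 and 405 CPM (0.73, SE 0.068, adjusted p = 0.000155), and the LIM protein Fhl1 from 48.4, 43.8 and 45.2 to 98.3, 111 and 113 CPM (1.23, SE 0.11, adjusted p = 0.000126). Acta2, smooth muscle actin, rose at a low level from 0.464, 0.331 and 0.188 to 1.82, 1.83 and 1.37 CPM (2.34, SE 0.38, adjusted p = 0.00448). Dock11 rose from 92.5, 91.7 and 92.8 to 163, 222 and 211 CPM (1.10, SE 0.11, adjusted p = 0.000226) and Dock5 from 26.3, 32.8 and 28.8 to 63.2, 63.6 and 64.8 CPM (1.12, SE 0.094, adjusted p = 9.13e-05), both exchange factors for small GTPases.

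Adhesion genes split. Of 34 tested genes of integrins and focal adhesion 5 rose and 4 fell (26.5% called against 7.98% of all genes). The scaffold Bcar1 rose from 141, 131 and 124.4 to 265, 281 and 245 CPM (1.00, SE 0.087, adjusted p = 0.000121) and the integrin subunit Itgb5 from 128, 125 and 122 to 240, 220 and 201 CPM (0.81, SE 0.068, adjusted p = 9.13e-05). Itgb7 fell from 9.33, 7.46 and 8.93 to 3.88, 2.51 and 2.07 CPM (-1.60, SE 0.25, adjusted p = 0.00362). At cell junctions 4 of 64 tested genes rose and 7 fell (17.2% called against 7.98% of all genes). The desmosome and adherens protein Jup rose from 72.9, 82.9 and 76.8 to 120, 140 and 126 CPM (0.73, SE 0.081, adjusted p = 0.000477), while Cgnl1, a tight junction protein, fell from 101, 104 and 104 to 47.9, 47.8 and 45.3 CPM (-1.13, SE 0.079, adjusted p = 3.13e-05). The guidance receptor Unc5b rose from 112, 118 and 117 to 265, 267 and 249 CPM (1.17, SE 0.14, adjusted p = 0.000654), whereas its ligand Ntn1 fell from 10.3, 8.36 and 10.4 to 2.16, 2.46 and 4.30 CPM (-1.70, SE 0.24, adjusted p = 0.00202). Of 67 tested guidance genes 5 rose and 10 fell (22.4% called against 7.98% of all genes).

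Of 122 tested genes of the extracellular matrix 12 rose, 15 fell and 95 were not called (22.1% called against 7.98% of all genes, median -0.23). With the block 18 rose and 37 fell, where 9.58% of all genes rose and 9.78% fell. The basement membrane collagens Col4a2 and Col4a1, which are neighbours transcribed from a shared promoter region, rose together: Col4a2 from 10.9, 14.1 and 14.2 to 39.5, 37.0 and 34.0 CPM (1.49, SE 0.13, adjusted p = 0.000110) and Col4a1 from 47.8, 53.7 and 53.4 to 102, 81.5 and 79.9 CPM (0.77, SE 0.13, adjusted p = 0.00535). Fibronectin, Fn1, rose from 188, 197 and 196 to 327, 298 and 296 CPM (0.66, SE 0.086, adjusted p = 0.00120), and Ltbp1, which holds latent TGF-beta in the matrix, from 50.8, 47.8 and 46.9 to 116, 99.7 and 92.4 CPM (1.08, SE 0.097, adjusted p = 0.000124). The proteoglycan Vcan fell from 126, 158 and 158 to 89.2, 86.6 and 89.8 CPM (-0.74, SE 0.096, adjusted p = 0.00123). Col7a1, the anchoring fibril collagen, fell from 24.7, 38.1 and 31.0 to 9.82, 8.32 and 9.82 CPM (-1.75, SE 0.18, adjusted p = 0.000355). Of 51 matrix enzymes 3 rose and 8 fell (21.6% called). Among those that fell was Mmp25, a membrane-anchored protease, from 30.7, 35.0 and 36.2 to 9.68, 8.68 and 9.06 CPM (-1.89, SE 0.13, adjusted p = 3.57e-05).

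Of 90 tested chemokine, cytokine and receptor genes 10 rose and 4 fell (15.6% called against 7.98% of all genes). The 4 that fell were Apln, Kit, Tnfrsf8 and Tnfrsf23, and 0 of these calls held in all 6 fits that left out a library, against 7 of the 10 rises. The chemokine Cxcl12 rose from 28.2, 26.3 and 31.8 to 112, 111 and 137 CPM (2.06, SE 0.17, adjusted p = 9.13e-05). Il33, a nuclear cytokine of the interleukin-1 family, rose from 1.29, 2.60 and 1.69 to 7.27, 19.8 and 19.07 CPM (3.04, SE 0.40, adjusted p = 0.00133). The LIF receptor Lifr rose from 21.6, 24.1 and 20.8 to 54.0, 50.7 and 45.2 CPM (1.17, SE 0.11, adjusted p = 0.000155). Genes outside that list changed too: Socs1, an inhibitor of cytokine signalling, rose from 7.63, 4.30 and 5.12 to 15.9, 22.6 and 19.8 CPM (1.78, SE 0.24, adjusted p = 0.00152). The leukotriene B4 receptor Ltb4r2, also outside the list, fell from 27.0, 35.7 and 34.9 to 8.40, 8.05 and 7.34 CPM (-2.04, SE 0.14, adjusted p = 2.49e-05) and its neighbour Ltb4r1 from 8.86, 14.7 and 15.5 to 3.14, 3.45 and 3.90 CPM (-1.90, SE 0.22, adjusted p = 0.000568).

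Interferon-response and antigen-presentation genes leaned upward, with 13 of 68 tested higher and 4 lower (25.0% called against 7.98% of all genes). The class I heavy chain gene H2-D1 rose from 18.7, 15.8 and 14.5 to 32.9, 29.2 and 29.6 CPM (0.91, SE 0.15, adjusted p = 0.00476), and H2-K1 from 75.5, 63.8 and 64.8 to 110, 96.9 and 97.8 CPM (0.58, SE 0.10, adjusted p = 0.00761). These genes have near-identical relatives, so the split of reads between them is uncertain. Their light chain B2m was among those that fell (-0.55, adjusted p = 0.0262), in 2 of the 6 fits without a library. Ifitm3, a membrane protein that restricts viral entry, rose from 40.9, 52.2 and 54.6 to 70.4, 108 and 105 CPM (0.94, SE 0.16, adjusted p = 0.00630). In Parp12 (0.361, 0.567 and 0.564 against 1.28, 5.07 and 4.86 CPM) and Psmb8, an immunoproteasome subunit (4.74, 6.38 and 6.58 against 6.83, 21.9 and 19.6 CPM), ABSC 1 was the lowest ABSC library, and for Psmb8 it lay just above the AFSC range. The call of Psmb8 (1.45, adjusted p = 0.0333) was lost with the block (0.0690) and in 5 of the 6 fits without a library (0.0951 to 0.130), and held without ABSC 1 (6.76e-05). Of the 13 rises 6 held in all of those fits.

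Of 138 tested ion channel genes 4 rose, 16 fell and 118 were not called (14.5% called against 7.98% of all genes, median -0.27). Of the 20 calls 12 held whichever library was left out. With the block 9 rose and 34 fell, where 9.58% of all genes rose and 9.78% fell. Gabra4, a GABA receptor subunit, had 0 counts in ABSC and 1.03, 1.18 and 1.22 CPM in AFSC, at least 22.7-fold lower when the group is set at the limit of 3 counts. The chloride channel family gene Ano3 fell from 20.5, 29.0 and 29.4 to 9.73, 10.8 and 10.8 CPM (-1.33, SE 0.15, adjusted p = 0.000552). An exception was the kainate receptor Grik3, which rose from 55.6, 74.9 and 69.0 to 199, 250 and 216 CPM (1.74, SE 0.17, adjusted p = 0.000216). Of 255 solute carriers 11 rose and 19 fell (11.8% called against 7.98% of all genes, median -0.043). The zinc importer Slc39a4 fell from 11.3, 11.1 and 10.4 to 2.85, 2.14 and 1.92 CPM (-2.24, SE 0.15, adjusted p = 2.49e-05), and the iodide carrier Slc5a5 from 39.3, 45.3 and 40.6 to 12.6, 15.2 and 14.8 CPM (-1.55, SE 0.11, adjusted p = 2.67e-05).

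Of 42 tested genes of glycolysis and low oxygen 1 rose and 3 fell (9.52% called, near the 7.98% of all genes, median -0.23). With the block 5 rose and 19 fell, where 9.58% of all genes rose and 9.78% fell. The glucose importer Slc2a3 went from 749, 478 and 469 CPM to 1131, 1213 and 1176 CPM (1.05, SE 0.16, adjusted p = 0.00316), with AFSC 1 nearest to ABSC, and of the alternatives the block over 6 libraries alone ended the call (0.121). Slc16a3, which exports lactate, fell from 562, 505 and 487 to 392, 357 and 316 CPM (-0.54, SE 0.082, adjusted p = 0.00286), and Ldhb from 106, 104 and 108 to 74.4, 68.7 and 70.9 CPM (-0.57, SE 0.081, adjusted p = 0.00190). Pdha1, the subunit that commits pyruvate to the mitochondrion, rose from 135, 139 and 134.4 to 252, 291 and 293 CPM (1.04, SE 0.066, adjusted p = 1.75e-05); it is in none of the lists and overlaps Map3k15. In the glycolysis list the libraries numbered 1 had the higher levels in both groups for Pgk1 at 1401, 943 and 953 CPM in AFSC and 1203, 799 and 732 CPM in ABSC, which was called with the block (adjusted p = 0.000630) and not without it. Of 104 genes of oxidative phosphorylation 0 rose and 3 fell (2.88%), and 0 of the 3 held in every fit that left out a library. With the block 0 rose and 13 fell, where 9.78% of all genes fell. Without the libraries numbered 1, 2 rose and 18 fell, where 13.9% of all genes fell.

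Single metabolic enzymes outside the lists also rose. Aldh2, which oxidises acetaldehyde in mitochondria, rose from 144, 129 and 133 to 236, 318 and 309 CPM (1.09, SE 0.11, adjusted p = 0.000355), and Acss1, a mitochondrial acetyl-CoA synthetase, from 2.83, 2.74 and 1.79 to 9.82, 11.7 and 13.4 CPM (2.25, SE 0.20, adjusted p = 0.000137). Of 39 lipid genes 6 rose and 2 fell (20.5% called), with the desaturase Scd1 higher at 483, 530 and 516 against 356, 402 and 400 CPM (0.40, SE 0.065, adjusted p = 0.00422). Of 26 genes of cholesterol synthesis 3 rose and 1 fell (15.4% called against 7.98% of all genes). Of these 4 calls 0 held in every fit without a library. With the block 12 rose and 2 fell, where 9.58% of all genes rose. Without the libraries numbered 1, 16 rose and 1 fell, where 14.5% of all genes rose. The ferritin chains rose slightly, Ftl1 from 533, 480 and 463 to 660, 695 and 612 CPM (0.41, SE 0.066, adjusted p = 0.00405) and Fth1 from 278, 268 and 275 to 332, 333 and 331 CPM (0.28, SE 0.048, adjusted p = 0.00596). Car2, a cytosolic carbonic anhydrase, fell from 246, 279 and 282 to 72.6, 119 and 115 CPM (-1.40, SE 0.21, adjusted p = 0.00339).

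Calls in growth and housekeeping genes were few without the block. Of 81 tested ribosomal protein genes 0 were called, and of 37 aminoacyl-tRNA synthetases 2 rose (5.41%). Of 88 folding genes 2 rose and 1 fell (3.41%), and of 46 proteasome genes 4 rose (8.70%, near the 7.98% of all genes). Without the libraries numbered 1, 20 ribosomal protein and 19 proteasome genes rose and 0 fell in either list, where 14.5% of all genes rose. Of 76 genes of replication and the cell cycle 4 rose and 0 fell (5.26% called against 7.98% of all genes). Ccnd2, the D-type cyclin that drives entry into S phase, rose from 38.2, 31.6 and 29.9 to 149, 139 and 136 CPM (2.09, SE 0.22, adjusted p = 0.000387). The helicase subunit Mcm6 rose from 296, 303 and 297 to 381, 384 and 368 CPM (0.34, SE 0.048, adjusted p = 0.00210), and with the block 13 of 29 replication genes rose and 0 fell, where 9.58% of all genes rose.

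Genes switched on by p53 leaned downward, 0 higher and 6 lower of 27 tested (median -0.27), where 4% of all genes were lower. With the block 1 was higher and 16 were lower, where 9.78% of all genes were lower. Mdm2, the ligase that limits p53 and is itself its target, fell from 341, 404 and 401 to 185, 248 and 254 CPM (-0.74, SE 0.12, adjusted p = 0.00444). Perp, a membrane protein of p53-driven death and of desmosomes, fell from 75.03, 92.2 and 93.3 to 49.4, 50.4 and 50.5 CPM (-0.79, SE 0.10, adjusted p = 0.00135), and Pidd1, a scaffold for caspase 2, from 112, 141 and 131 to 88.1, 90.8 and 90.2 CPM (-0.51, SE 0.083, adjusted p = 0.00422). The other 3 calls, Phlda3, Zmat3 and Ckap2, each held in 1 of the 6 fits without a library. Cdkn1a, the cell-cycle inhibitor p53 is best known for, was at 165, 210 and 219 CPM in AFSC and 104, 180 and 159 CPM in ABSC, overlapping and not called (adjusted p = 0.252; with the block 0.00197). Among 27 BCL2 family and caspase genes 1 rose and 1 fell (7.41% called, near the 7.98% of all genes). The survival factor Bcl2l2 rose from 38.1, 22.8 and 22.2 to 90.3, 79.1 and 95.02 CPM (1.67, SE 0.19, adjusted p = 0.000601) and the killer Bcl2l11 fell from 56.1, 53.3 and 53.9 to 36.7, 43.5 and 42.1 CPM (-0.42, SE 0.078, adjusted p = 0.00940).

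Of 132 tested chromatin modifiers 6 rose and 9 fell (11.4% called against 7.98% of all genes). The Polycomb component Phc1 fell from 592, 634 and 608 to 444, 475 and 458 CPM (-0.41, SE 0.052, adjusted p = 0.00109) and Pcgf5, of another Polycomb complex, rose from 9.02, 8.22 and 10.1 to 19.6, 19.6 and 23.7 CPM (1.2, SE 0.13, adjusted p = 0.000444). Uhrf1, which guides maintenance methylation of DNA, rose from 356, 367 and 373 to 426, 497 and 477 CPM (0.35, SE 0.063, adjusted p = 0.00732). Of 42 tested imprinted genes, expressed from 1 parental copy, 3 rose and 6 fell (21.4% called against 7.98% of all genes). Nnat fell from 22.2, 18.9 and 18.1 to 3.24, 5.23 and 4.91 CPM (-2.14, SE 0.18, adjusted p = 8.34e-05) and lies within Blcap, with which its reads may mix. Magel2 fell from 23.9, 25.0 and 26.0 to 9.82, 8.16 and 10.3 CPM (-1.41, SE 0.18, adjusted p = 0.00113), and the noncoding Meg3 from 574, 566 and 482 to 370, 348 and 382 CPM (-0.56, SE 0.071, adjusted p = 0.00109). Plagl1, a zinc-finger factor, rose from 8.50, 9.73 and 9.82 to 18.3, 39.1 and 36.7 CPM (1.74, SE 0.27, adjusted p = 0.00312).

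Of the called genes 366 were in at least 1 of the 40 lists and 925 in none, which is 13.2% of the tested genes in a list and 6.90% of those in none. The lists were chosen with earlier results of these data known. Gene classes also differ in called share, at 9.16% of protein-coding and 2.18% of antisense genes. The shares inside and outside the lists are therefore not directly comparable. Among the genes in no list, Sccpdh, a lipid-droplet protein, rose from 27.8, 25.5 and 25.4 to 130, 152 and 145 CPM (2.44, SE 0.13, adjusted p = 6.25e-06). Dpysl3, a cytoskeletal regulator of growth cones, rose from 13.1, 12.6 and 9.63 to 66.7, 55.0 and 59.5 CPM (2.36, SE 0.13, adjusted p = 9.91e-06), and Catsperg1, named as a subunit of a sperm calcium channel, from 10.6, 11.3 and 8.69 to 61.5, 56.2 and 66.7 CPM (2.59, SE 0.15, adjusted p = 9.91e-06). The serotonin receptor Htr7 rose from 2.78, 2.74 and 3.05 to 14.5, 13.96 and 15.8 CPM (2.37, SE 0.34, adjusted p = 0.00231). Among the falls were the neurofilament Nefl, from 182, 201 and 210 to 53.7, 74.0 and 75.6 CPM (-1.55, SE 0.13, adjusted p = 9.13e-05), the acyltransferase Agpat3, from 206, 217 and 225 to 87.7, 102 and 95.6 CPM (-1.18, SE 0.090, adjusted p = 4.95e-05), and Pmm1, a phosphomannomutase, from 271, 256 and 270 to 145, 132 and 131 CPM (-0.97, SE 0.060, adjusted p = 1.47e-05). In each of these 7 genes the groups were separate, as in all but 1 of the called genes and in 27.4% of all tested genes.

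**Figure D4:**
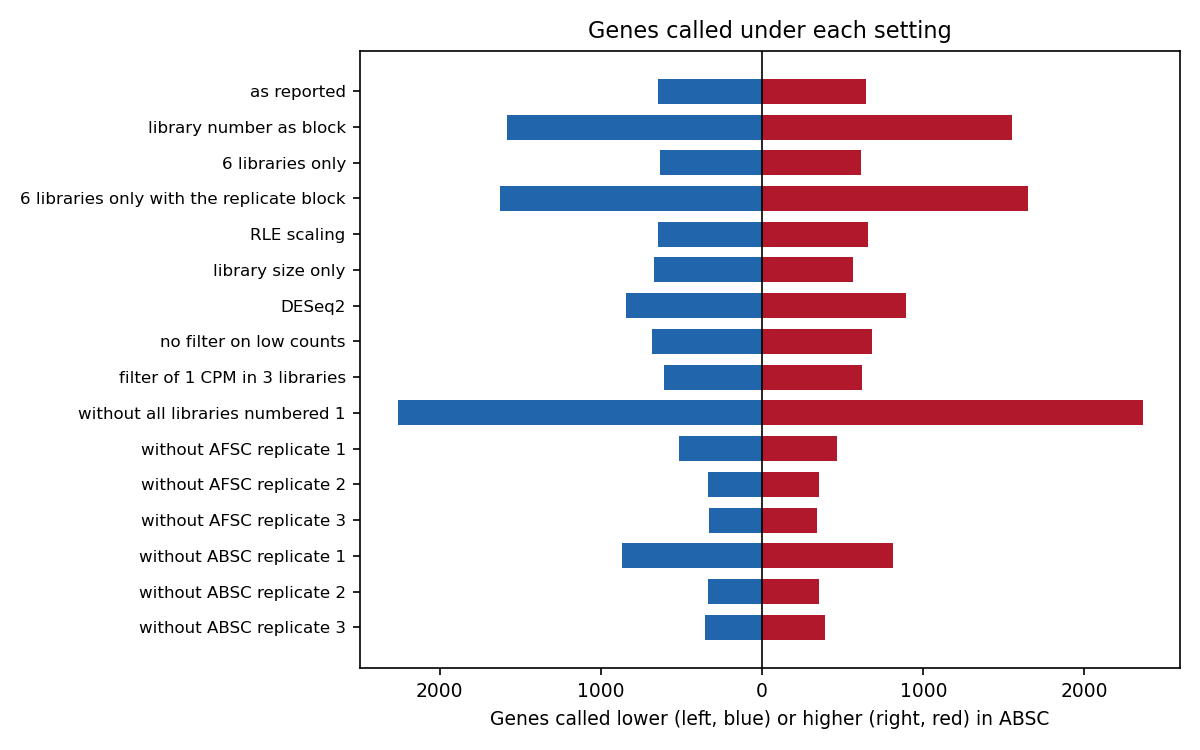
Number of genes called higher (red, right) and lower (blue, left) in ABSC under each of 16 settings. The count is largest without the 3 libraries numbered 1 (4622) and smallest without AFSC 3 (667), with nearly equal sides throughout.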

How the data were processed

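RNA was selected with poly-T beads and sequenced from 9 libraries, 3 each of AFSC, ABSC and ALSC. The authors deposited 1 table of raw counts per gene, made with HISAT2 2.0.5 and featureCounts 1.5.0-p3 per the submitters' processing notes. Those notes name build mm9, whereas 98.33% of the gene identifiers shared with a GRCm38 annotation have its coordinates, so coordinates are given as GRCm38. The library kit does not mark strand, so genes that overlap cannot be told apart. Entries without a gene identifier held 0.208% to 0.227% of the counts and were left out.

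Counts were tested with edgeR 4.0.16 in R 4.3.3 (TMM, filterByExpr at 10 counts, total at least 15, quasi-likelihood test, Benjamini-Hochberg adjustment) over 16178 genes, in 1 fit of the 9 libraries with 6 residual degrees of freedom. The script was tested on simulated data. Alternatives were the library number as a block, the 6 libraries alone, RLE or no scaling factors, DESeq2 1.42.0, other filters and leaving out libraries. Deviations of libraries with the same number correlated in every pair (0.197 to 0.554, and for AFSC with ABSC 0.496, 0.226 and 0.233). The number was therefore used as the block of alternative fits. The changes, SE and adjusted p given are from the fit without a block unless stated. The labels do not say what the numbers stand for. Libraries 2 and 3 of AFSC and ABSC correlated as well across numbers (0.264 and 0.266), so these values set apart only the libraries numbered 1.

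Members and lists were chosen with earlier results of these data known. The naming rule took, per list, the 4 largest called changes at 1 CPM or more, preferring calls held in all 6 fits that leave out a library, plus the largest rises and falls over all genes, genes at 0 in 1 group, and cell markers. Genes named outside that rule (Id2, Id3, Id4, Smad6, Bmp2, Bmp7, Chrd, Lefty2, Nodal, Tgfbr3, Dusp6, Etv4, Etv5, Fzd8, Axin2, Meis1, Meis2, Hopx, Foxa1, Klf3, Grhl2, Dock11, Itgb5, Col4a1, Col4a2, Fn1, Ltbp1, Vcan, Lifr, Socs1, Apln, Tnfrsf8, Tnfrsf23, H2-K1, B2m, Ano3, Slc5a5, Pgk1, Vegfa, Scd1, Fth1, Cdkn1a, Phlda3, Zmat3, Ckap2, Bcl2l11, Uhrf1 and members of the neighbour runs) were chosen after their values were seen. Some items are not reported here. Promoters came from RefSeq, GRCm38.p6. A count of 3 was taken as the upper limit of a count of 0, and intervals are exact at 95%, for counting error only.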

Additional observations from a re-analysis of the deposited data

How the results depend on the processing

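The main count of 1291 genes called (644 higher, 647 lower) rose to 3132 (1550 and 1582) with the replicate block, to 3276 (1647 and 1629) with the block over the 6 libraries alone, and to 4622 (2360 and 2262) without the 3 libraries numbered 1. Leaving out 1 library gave 667 (without AFSC 3) to 1680 (without ABSC 1) genes, with 339 to 811 higher and 328 to 869 lower. The other settings gave 1227 to 1737. Without TMM factors 45.7% of the calls were higher, against 49.9%. In 0 of these settings was a called gene called in the opposite direction. Of the 217 named genes that were called, the block ended the call of 2, Psmb8 and Ahnak, and leaving out 1 library ended 9 (ABSC 1) to 43 (AFSC 3). Vegfa, which was not called, turned negative without AFSC 2 (-0.056), AFSC 3 (-0.11), ABSC 1 (-0.66) or all libraries numbered 1 (-0.046), and was highest without AFSC 1 (0.77). With 19414685 to 21627656 counts in a library, 3 counts are 0.141 to 0.157 CPM, so changes of genes near that level were not detectable at this depth. The media, the passage ranges and the library groups cannot be told apart.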

Other observations

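Called genes often lay beside each other. Among 13501 adjacent pairs of tested protein-coding genes, 186 had both members called, 71 both higher, 70 both lower and 45 in opposite directions. Neighbours of genes that rose had risen in 142 of 1250 cases (11.4%), against 4.64% of protein-coding genes, and neighbours of genes that fell had fallen in 140 of 1219 cases (11.5%), against 4.52%. These shares are descriptions with no test, and unstranded reads of overlapping neighbours cannot be told apart. The longest run was Apobec1, Gdf3, Dppa3, Nanog and Slc2a3 on chromosome 6 (GRCm38, 122577792 to 122801640), with log2 changes of 1.18, 3.43, 8.26, 0.37 and 1.05. Nanog held its call in 1 of the 6 fits that left out a library, the one without ABSC 1. Dppa3, a maternal and germline factor, had 0 counts in AFSC and was at least 39.0-fold higher in ABSC. On chromosome 5 (98167198 to 98802047) Prdm8, Fgf5 and Cfap299 fell, with log2 changes of -2.46, -3.53 and -2.84. The run of Gm38393, Snrpn, Ndn and Magel2 on chromosome 7, an imprinted region, fell, with log2 changes of -0.72, -0.46, -0.77 and -1.41. The call of Gm38393, which overlaps Snrpn, was lost without AFSC 2, AFSC 3, ABSC 1 or ABSC 2.

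The sharpest loss in counts was that of Slitrk5, a synaptic membrane protein, at 6.49, 7.18 and 7.85 CPM in AFSC and with 1 count in all of ABSC against 445, a ratio of 426 with a counting interval of 76.1 to 16900. Noncoding classes had smaller called shares than the 7.98% of all genes. Of 412 antisense genes tested 1 rose and 8 fell (2.18%), of 222 processed transcripts 0 rose and 9 fell (4.05%), and of 383 lincRNA genes 5 rose and 12 fell (4.44%). Processed pseudogenes had 7 higher and 1 lower of 840. Genes of any class under 1 CPM also had a small called share (2.49%, against 9.1% at 10 to 100 CPM). They had more falls than rises, 12 higher and 40 lower. Whether the smaller shares of noncoding classes go with class or with level was not tested. On the X chromosome 43 genes rose and 37 fell of 563 tested, 14.2% against the 7.98% of all genes.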
